A study of Mus musculus with 9 samples.

Results

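Collagen and laminin chains are the genes described here, in a mouse cell line with and without rapamycin and in a resistant derivative of it. The members were all genes of the array whose single symbol in the platform annotation is that of a collagen alpha chain (Col, a number, a, a number) or of a laminin alpha, beta or gamma chain (Lama, Lamb or Lamc with a number). They numbered 52 of the 18193 genes with a single symbol, 42 of them collagen chains and 10 laminin chains, measured by 101 probe sets. The rule used names only and no measured value. Of the 52, 35 passed a filter on dim probe sets and were tested, 28 of 42 collagen and 7 of 10 laminin chains.

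The cells were BC3H1, a mouse brain tumour line with muscle-like properties, grown in medium with serum. Total RNA was hybridized to 9 arrays, 3 for each of 3 groups. The DMSO group was rapamycin-sensitive BC3H1 cells (RS) given the solvent for 24 h, and the sensitive rapamycin group was the same cells given 100 nM rapamycin for 24 h. The resistant group was RR1, obtained by culture of BC3H1 cells in 1 uM rapamycin for 6 months and kept in 1 uM rapamycin. Rapamycin inhibits mTOR complex 1. The groups in rapamycin differ in dose and in exposure time as well as in line, and line, months of culture and drug cannot be told apart in the resistant group. The resistant group is 1 line. No label ties the 3 arrays of a group to different cultures, and the p-values therefore cover array-to-array spread that may be technical only.

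Collagens are triple helices of 3 alpha chains. Fibrillar collagens assemble into the cross-banded fibrils of connective tissue: type I is built from Col1a1 and Col1a2, type III from Col3a1 alone, type V from Col5a1, Col5a2 and Col5a3, and type XI from Col11a1, Col11a2 and the chain Col2a1. Basement membranes are thin sheets under epithelia and around muscle and fat cells, made of a network of type IV collagen and a network of laminin, a cross-shaped trimer of 1 alpha, 1 beta and 1 gamma chain. Other collagens form beaded filaments (type VI), short-chain networks (type VIII), anchoring fibrils (type VII), or decorate fibrils (the FACIT group, such as Col12a1 and Col16a1). Muscle cells make both a fibrillar matrix and a basement membrane, and Lama2 is the main laminin alpha chain around mature muscle fibres. The 52 members fell into 11 fibrillar chains, 16 basement membrane chains (type IV collagens and laminins) and 25 other chains.

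After the authors' scaling, 8 arrays had a median signal of 33.5 to 44.3, and the third DMSO array stood apart at 66.2, with 17.4% of its probe sets below a signal of 16 against 29.3% to 34.8% elsewhere. Control probe sets at the 3-prime end of Actb exceeded those at the 5-prime end, a measure of RNA integrity, by 0.15 to 0.22 (log2) on the sensitive and by 0.32 to 0.35 on the resistant arrays. Smooth muscle markers were present, with 5 of 7 above the filter limit in DMSO cells (Acta2, Actg2, Tagln, Cnn1 and Smtn), and Myh11 and Myocd below it. Their summed signal was 22400 to 30300 on the DMSO arrays, 27200 to 27700 on the sensitive rapamycin arrays and 7310 to 8970 on the resistant arrays, where Actg2 and Cnn1 were also below the limit. Skeletal muscle markers were above the limit in 4, 3 and 4 of 7 in the same order of groups, and summed to 1480 to 1650, 1570 to 1760 and 1230 to 1310. Of 8 neural or glial markers 7, 5 and 4 were above the limit, among them Gfap and Tubb3 in every group, and they summed to 373 to 898, 462 to 475 and 240 to 268. Of 6 epithelial markers 4, 3 and 3 were above it (Epcam and Krt5 in every group, Cdh1 in none), with sums of 388 to 647, 250 to 284 and 104 to 162. Of 5 leukocyte markers 4, 3 and 3 were above it (Cd68, Csf1r and Adgre1 in every group, Ptprc in none), with sums of 185 to 593, 212 to 226 and 178 to 264. Of 6 endothelial markers 2, 1 and 1 were above it (Kdr in every group, Pecam1 in none), with sums of 70.9 to 229, 56 to 128 and 69.4 to 123. Group means of log2(signal + 16) are compared here with the limit, which equals a signal of 22.2. A plain mean signal slightly above 22.2 can therefore count as below it. In bulk RNA, fewer cells of a type and less RNA per cell cannot be told apart.

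Promoter windows of 300 bases, 250 before and 50 from the annotated start on, were found by symbol for 38 members (42 windows) in a RefSeq table of the build GRCm38.p6; the array files name no build. The 6 shown stand for 3 patterns: Col1a2, Col4a2 and Col8a1 rose with rapamycin and were low in the resistant line, Lama5 and Lamb2 were high in both, and Col5a3 was low in both. Capitals mark the CCAAT box (CCAAT) and the GC box (GGGCGG), each searched on both strands; no marked match overlaps another in these windows.
Col1a2 (chr6:4505368-4505667, plus strand): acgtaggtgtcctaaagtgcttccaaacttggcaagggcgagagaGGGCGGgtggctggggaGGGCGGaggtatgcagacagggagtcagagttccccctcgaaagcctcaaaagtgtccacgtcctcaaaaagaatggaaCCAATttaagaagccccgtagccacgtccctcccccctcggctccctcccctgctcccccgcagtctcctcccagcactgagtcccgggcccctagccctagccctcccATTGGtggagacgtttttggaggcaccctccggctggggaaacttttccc
Col4a2 (chr8:11312555-11312854, plus strand): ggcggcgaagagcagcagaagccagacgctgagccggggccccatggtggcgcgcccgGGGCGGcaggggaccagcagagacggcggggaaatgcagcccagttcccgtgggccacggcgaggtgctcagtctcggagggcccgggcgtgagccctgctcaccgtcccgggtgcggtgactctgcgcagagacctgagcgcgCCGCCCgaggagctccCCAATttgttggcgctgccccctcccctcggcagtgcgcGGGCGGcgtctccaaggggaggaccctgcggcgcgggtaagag
Col8a1 (chr16:57754688-57754987, minus strand): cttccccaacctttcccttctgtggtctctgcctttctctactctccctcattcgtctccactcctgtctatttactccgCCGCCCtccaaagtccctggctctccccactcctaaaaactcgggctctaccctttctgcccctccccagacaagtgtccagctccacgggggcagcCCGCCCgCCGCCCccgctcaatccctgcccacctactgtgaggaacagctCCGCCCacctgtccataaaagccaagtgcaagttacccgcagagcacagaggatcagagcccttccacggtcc
Lama5 (chr2:180225810-180226109, minus strand): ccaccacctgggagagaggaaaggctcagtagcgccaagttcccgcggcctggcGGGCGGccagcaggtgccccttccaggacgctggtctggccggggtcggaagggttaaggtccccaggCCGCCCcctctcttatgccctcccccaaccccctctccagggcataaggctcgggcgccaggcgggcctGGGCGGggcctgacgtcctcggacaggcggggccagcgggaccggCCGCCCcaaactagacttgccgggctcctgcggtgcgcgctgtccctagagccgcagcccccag
Lamb2 (chr9:108479612-108479911, plus strand): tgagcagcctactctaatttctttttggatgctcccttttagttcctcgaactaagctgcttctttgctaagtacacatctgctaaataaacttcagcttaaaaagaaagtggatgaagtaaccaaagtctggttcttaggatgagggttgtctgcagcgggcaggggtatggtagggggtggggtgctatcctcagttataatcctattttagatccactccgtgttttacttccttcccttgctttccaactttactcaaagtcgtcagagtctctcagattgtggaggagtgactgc
Col5a3 (chr9:20815018-20815317, minus strand): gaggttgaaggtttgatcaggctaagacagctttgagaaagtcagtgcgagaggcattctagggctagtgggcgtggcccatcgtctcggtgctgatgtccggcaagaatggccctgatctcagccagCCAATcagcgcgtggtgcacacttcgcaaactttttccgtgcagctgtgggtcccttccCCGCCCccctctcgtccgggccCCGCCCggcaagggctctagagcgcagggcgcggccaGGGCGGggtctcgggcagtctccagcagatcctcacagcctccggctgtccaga
Of all 32851 windows in that table, 37.4% held CCAAT and 35.7% held GGGCGG on either strand; of the members' 42 windows, 14 (33.3%) and 25 (59.5%) did. The Col1a2 window held 2 CCAAT and 2 GGGCGG matches, and Col4a2 held 1 and 3. Col5a3, which moved the other way with rapamycin, held 1 and 3 as well. Lama5 held 4 GGGCGG matches, as did Col8a1, and neither held CCAAT. Neither motif was in the Lamb2 window. A match is not a bound site, and the part of these motifs in the changes was not tested. Col4a1 and Col4a2 lie head to head: their annotated starts on opposite strands are 21 bases apart, and their windows share 78 bases. Col4a6 and Col4a5 are also head to head, with starts 1343 bases apart.

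In sensitive cells, 24 h of rapamycin was followed by higher signals of most laminin, type IV and fibrillar collagen chains that were tested. Each gene was read by its brightest probe set, and for fibrillar chains the result depended on that choice. Their next brightest probe set was called higher for Col1a2 (0.49). It was not called for Col1a1 (0.13), Col5a1 (0), Col5a2 (0.10), Col27a1 (0.82) or Col3a1 (-0.23). Fibrillar chains called, 7 with the fall of Col5a3, ran from 4 to 7 leaving out 1 array. Of 35 tested members 16 were higher and 2 were lower, that is 45.7% and 5.71%. Of all 12715 tested genes, 35.6% were called (adjusted p under 0.05), 20.4% higher and 15.2% lower. By class, 7 of 11 basement membrane chains, 6 of 9 fibrillar chains and 3 of 15 other chains rose, and 0, 1 and 1 fell. The median log2 change was 0.52 for basement membrane chains, 0.34 for fibrillar chains and -0.16 for the others, against 0.03 for all genes. Of the tested cell type markers, the epithelial marker Epcam fell with rapamycin (-1.21 ± 0.38, adjusted p = 0.0197). The skeletal muscle marker Des rose (0.22 ± 0.08, adjusted p = 0.0491). Epcam varied widely among the DMSO arrays, with 138 ± 112 (SD, n = 3) there and 41.6 ± 11.3 with rapamycin. The part of Epcam and Des in these results was not tested. Of the 35 tested members, 28 had a group mean of log2(signal + 16) above the filter limit in all 3 groups and 7 in 2 groups.

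The resistant line had lower fibrillar and type IV collagen than untreated sensitive cells, with some laminins higher. Of 35 tested members 17 were lower (48.6%) and 3 were higher (8.57%), against 25.8% lower and 25.9% higher among all tested genes (51.8% called). Of the fibrillar chains 7 of 9 fell and none rose, with a median log2 change of -1.06. Type IV chains fell in 3 of 4. Of 7 laminin chains, 3 rose (Lama5, Lamb2 and Lamc1), 2 fell (Lama2 and Lamb3) and 2 did not pass the test. The other chains fell in 5 of 15, with a median of -0.55; the median of all genes was -0.07. In the same line all 5 tested smooth muscle markers fell (median log2 change -2.55; with rapamycin 0 of 5 were called) and the Actb difference was larger. Of 5 tested skeletal muscle markers 3 rose, Tnnt1 (3.49), Myog (2.37) and Ckm (1.15), and 2 fell, Chrna1 (-4.22) and Des (-0.54). Myog had a group mean above the filter limit in the resistant line only. It was tested because the filter takes the mean over all 9 arrays. Myod1, above the limit in DMSO cells only, did not pass the filter and was not tested. The count of rises among these markers therefore depends in part on the filter. Of 6 neural or glial markers 3 fell, Mbp (-2.39), Sox10 (-1.10) and Tubb3 (-0.59), and of 4 epithelial markers 2 fell, Krt14 (-3.52) and Krt5 (-1.18). None of 3 leukocyte markers and 1 endothelial marker was called. The part of these changes in the lower collagens was not tested. The sensitive cells with rapamycin and the resistant line are compared with the same DMSO arrays, so these comparisons share samples.

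**Figure D1:**
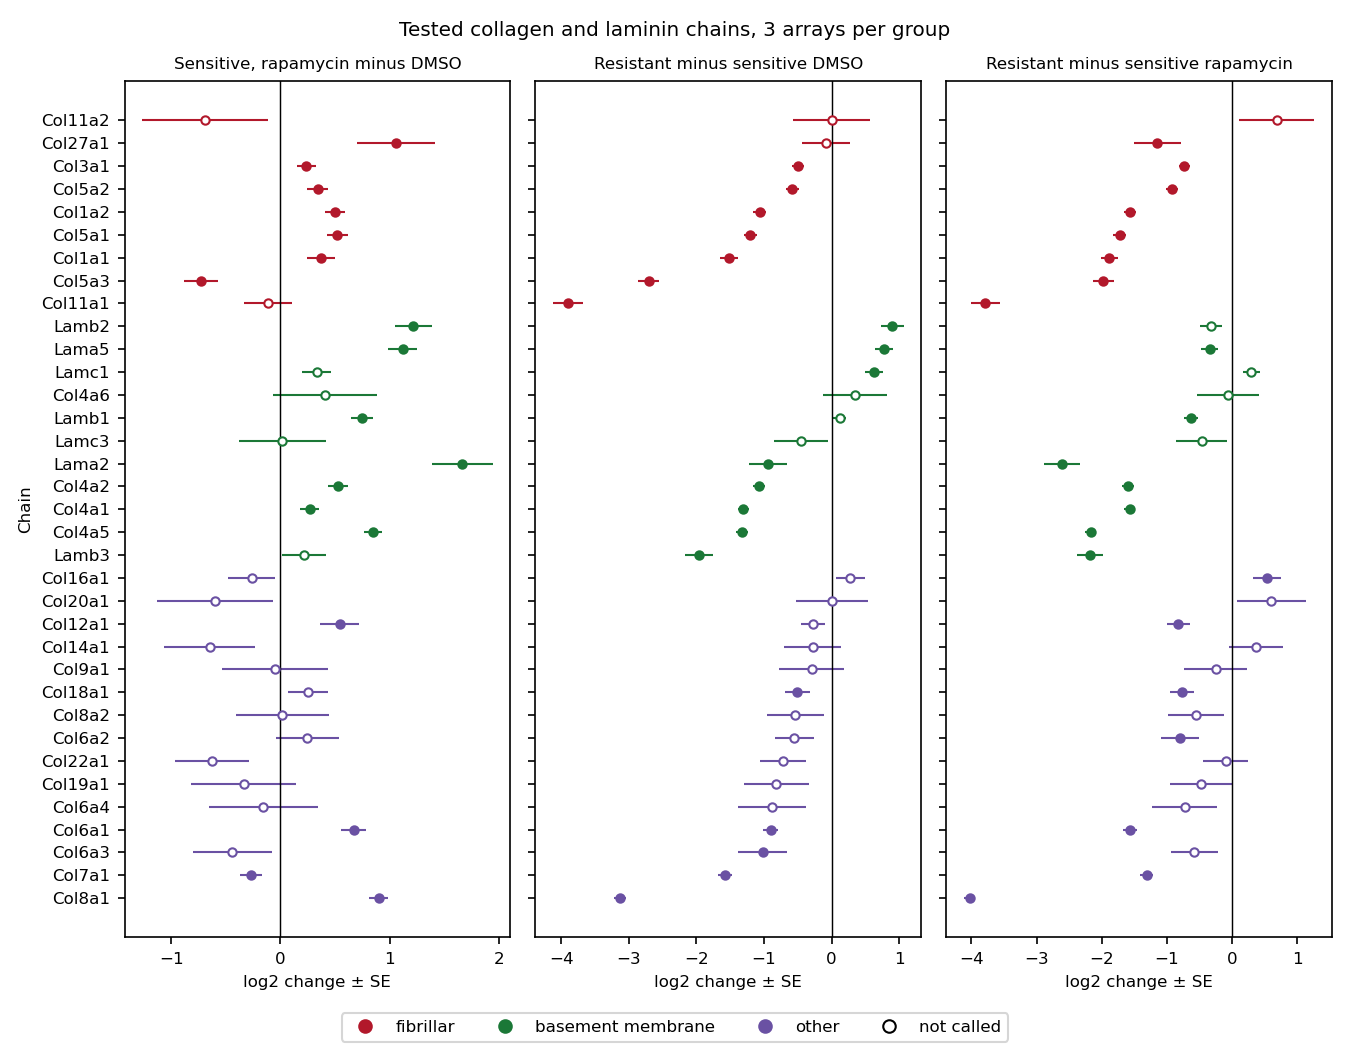
Log2 change with its standard error (horizontal axis) of the 35 tested chains (rows) in each of the 3 comparisons, 3 arrays per group; colour gives the class and open circles did not pass the test. Fibrillar chains other than Col11a1, Col11a2 and Col5a3 lie to the right of 0 in the first panel, and 7 of 9 are called to the left of 0 in the second, where Lamb2, Lama5 and Lamc1 are called to the right.

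Type I collagen, the main fibril of connective tissue, rose with rapamycin and was below its DMSO level in the resistant line. Col1a2 read 12922, 13397 and 10989.6 on the DMSO arrays, 18843, 17993 and 15880.2 on the sensitive rapamycin arrays and 5879, 6095 and 5795 on the resistant arrays. No values overlapped between groups. Its log2 change was 0.50 ± 0.10, adjusted p = 0.000518 with rapamycin and -1.06 ± 0.10, adjusted p = 5.47e-08 in the resistant line against DMSO. Col1a1, the partner present in 2 copies in each type I trimer, read 11567, 12028 and 9305 in DMSO, 15530, 14102 and 12741 with rapamycin and 4477, 4007 and 3049 in the resistant cells, also without overlap. It changed by 0.37 ± 0.13, adjusted p = 0.0335 and by -1.52 ± 0.13, adjusted p = 2.48e-08. The second Col1a1 probe set did not pass with rapamycin (0.13 ± 0.11, adjusted p = 0.433 with all probe sets fitted together).

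Of the type III and V chains, Col3a1 read 11795, 11980.5 and 10144 in DMSO, 14169.7, 13050.3 and 12730.2 with rapamycin and 8043, 8280.4 and 7722 in the resistant line. Its changes were 0.24 ± 0.09, adjusted p = 0.0479 with rapamycin and -0.49 ± 0.09, adjusted p = 0.000169 in the resistant line. Col3a1 thus moved least of the fibrillar chains that passed the test against DMSO, in both comparisons by this probe set. Col5a1, needed to start fibril assembly, rose from 3396 ± 176 (SD, n = 3) to 4909 ± 708 and fell to 1466 ± 109, changes of 0.52 ± 0.09, adjusted p = 0.000284 and -1.20 ± 0.09, adjusted p = 8.06e-09. Its partner Col5a2 changed by 0.34 ± 0.09, adjusted p = 0.00844 and -0.58 ± 0.09, adjusted p = 4.86e-05, with 11074, 11428 and 9502 in DMSO, 14453, 13700.2 and 12316 with rapamycin and 6896, 7407 and 7036 in resistant cells. Col3a1 and Col5a2 are next to each other on chromosome 1 in the RefSeq gene order.

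Col5a3, a less common type V chain, went against its partners with rapamycin and fell with them in the resistant line. It read 438, 459.7 and 487 in DMSO, 282, 289.8 and 246 with rapamycin and 69.3, 43.5 and 61.5 in the resistant line, so that each group lay wholly below the one before. The log2 change was -0.73 ± 0.16, adjusted p = 0.00137 with rapamycin and -2.70 ± 0.16, adjusted p = 1.88e-10 in the resistant line. Col11a1, which co-assembles with types II and V, was at 221, 286 and 252 in DMSO and 254, 241 and 201 with rapamycin, with overlapping values (-0.12 ± 0.22, adjusted p = 0.731). On the resistant arrays it read 0.80, 3.70 and 1.30, a log2 change of -3.90 ± 0.22, adjusted p = 1.25e-10. Those resistant values were below the filter limit of 22.2, where the pseudocount of 16 limits the size of the change. Col27a1, a short fibrillar chain known from cartilage, rose by 1.06 ± 0.36, adjusted p = 0.0271 with rapamycin, although the third DMSO array (37.1) was far below the first (132) and second (189), and the groups overlapped. In the resistant line it read 90.2, 79 and 118 and the change was -0.08 ± 0.36, adjusted p = 0.867; without the third DMSO array this passed as a fall (-0.66, adjusted p = 0.0232), as it did when its probe sets were averaged (-0.85, adjusted p = 0.0151).

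The rise of Col1a2 and the fall of Col5a3 with rapamycin passed under all 18 alternatives run, and the rises of the other 5 called fibrillar chains did not. Without the third DMSO array the adjusted p was 0.11 for Col1a1, 0.0589 for Col3a1 and 0.105 for Col27a1 (log2 change 0.49), and without the first sensitive rapamycin array it was 0.143, 0.171 and 0.113; Col1a1 was also lost without the second (0.0852) and Col27a1 without the third (0.0957). Over all alternatives the adjusted p of Col1a1 ran from 0.00434 to 0.143 and that of Col27a1 from 0.00346 to 0.122. The call of Col3a1 was lost in 14 of 18 alternatives (0.0367 to 0.979), among them the removal of any array but the second DMSO array, that of Col5a2 only under 75th percentile centring of the arrays (adjusted p = 0.0576), and that of Col5a1 only when its probe sets were averaged (0.0593).

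**Figure D2:**
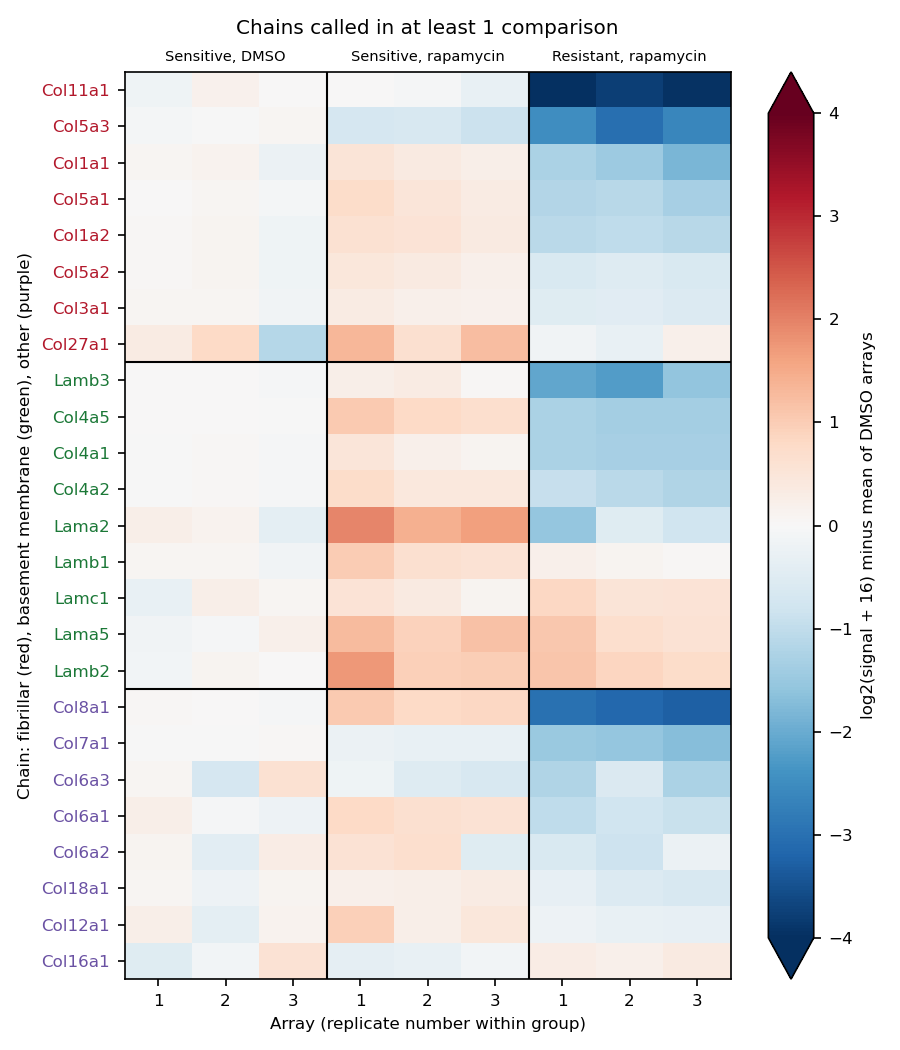
Heat map of the 25 chains called in at least 1 comparison (rows) on the 9 arrays (columns), as log2(signal + 16) minus the mean of the 3 DMSO arrays, red higher and blue lower; the colour scale ends at 4 in either direction. The resistant columns are blue for type I, III, V, XI, IV and VIII collagen and red for Lama5, Lamb2 and Lamc1.

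Type IV collagen, the network of the basement membrane, rose with rapamycin and fell in the resistant line in 3 chains. Col4a1 read 3767, 3929 and 3631 in DMSO, 5281, 4343 and 4099 with rapamycin and 1548, 1497 and 1507 in the resistant line. It changed by 0.27 ± 0.09, adjusted p = 0.0211 and -1.30 ± 0.09, adjusted p = 9.24e-10. Its trimer partner and head-to-head neighbour Col4a2 read 2691, 2787 and 2627 in DMSO, 4496, 3632 and 3609.8 with rapamycin and 1409.8, 1258 and 1162 in the resistant line. Col4a2 changed by 0.52 ± 0.09, adjusted p = 0.000204 with rapamycin and -1.08 ± 0.09, adjusted p = 2.42e-08 in the resistant line. Neither chain's groups overlapped, and the 95% intervals of their changes overlapped in both comparisons (0.09 to 0.45 and 0.33 to 0.72 with rapamycin, -1.49 to -1.12 and -1.27 to -0.88 in the resistant line).

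Col4a5, a chain of the specialised type IV networks of kidney, muscle and lung, rose most of the type IV chains with rapamycin. It read 2126, 2142 and 2067 in DMSO, 4422, 3711 and 3379.6 with rapamycin and 872, 817 and 816 in resistant cells, without overlap. The change was 0.85 ± 0.09, adjusted p = 5.73e-07 with rapamycin and -1.32 ± 0.09, adjusted p = 8.61e-10 in the resistant line. Its head-to-head neighbour Col4a6 was dim, with values between 8.80 and 57.9 over the 9 arrays and overlapping groups. Of Col4a3 and Col4a4, another adjacent pair, no probe set passed the filter. The rise of Col4a1 with rapamycin was lost without the first sensitive rapamycin array (0.16, adjusted p = 0.118) and without the first DMSO array (adjusted p = 0.0503). Over all alternatives its adjusted p ran from 0.0011 to 0.118. The second Col4a1 probe set rose more, by 0.65 ± 0.10 (adjusted p = 0.00012 with all probe sets fitted together). The rises of Col4a2 and Col4a5 were kept in all 18 alternatives.

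The 3 largest rises with rapamycin among the members were those of laminin chains, Lama2, Lamb2 and Lama5, and the last 2 were also above DMSO in the resistant line. Lama5, the alpha chain of widely expressed basement membranes, read 369, 396 and 472 in DMSO, 1012, 788 and 944 with rapamycin and 889.5, 657 and 623 in resistant cells. It rose by 1.12 ± 0.13, adjusted p = 2.7e-06 with rapamycin and was higher by 0.78 ± 0.13, adjusted p = 7.12e-05 in the resistant line. Lamb2, the beta chain found at the neuromuscular junction and in the kidney filter, read 213, 251 and 233 in DMSO, 807, 463 and 473 with rapamycin and 518, 434 and 394 in resistant cells. All values in rapamycin, sensitive or resistant, were above all DMSO values for both chains. Lamb2 changed by 1.22 ± 0.17, adjusted p = 1.9e-05 and 0.90 ± 0.17, adjusted p = 0.00022.

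Lamc1, the gamma chain of most laminins, was higher in the resistant line (934, 744 and 767) than in DMSO cells (416, 608 and 548), a change of 0.63 ± 0.13, adjusted p = 0.000707. With rapamycin it read 758, 668 and 557, which overlapped DMSO and did not pass the test (0.33 ± 0.13, adjusted p = 0.0645); it passed without the second DMSO array (0.0233) or the third sensitive rapamycin array (0.025). Lamb1, the usual beta partner of Lamc1, rose with rapamycin from 1255, 1254 and 1087 to 2429.5, 1883 and 1790.2, by 0.74 ± 0.10, adjusted p = 1.48e-05. In the resistant line it read 1367, 1282 and 1247, and its change against DMSO was 0.12 ± 0.10 (adjusted p = 0.357, 95% interval -0.10 to 0.33). All 3 probe sets of Lamb1 above the filter gave this pattern, called higher with rapamycin and not called in the resistant line.

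Lama2 and Lamb3 behaved unlike those chains in the resistant line. Lama2 rose with rapamycin by 1.67 ± 0.28, adjusted p = 0.00014, the largest rise of any member, from 100.2, 92.8 and 59.2 to 368, 245 and 287. On the resistant arrays it read 17.5, 54.9 and 40.2, lower than in DMSO by the test (-0.94 ± 0.28, adjusted p = 0.00853), and 1 of these values was below the filter limit. That fall did not pass under quantile normalization (-0.63, adjusted p = 0.131) or without the first resistant array (-0.64, adjusted p = 0.0539; 0.00225 to 0.131 over all alternatives). Lamb3, the beta chain of the epidermal anchoring laminin, read 194, 195 and 186 in DMSO and 230.5, 247 and 200.1 with rapamycin (0.22 ± 0.20, adjusted p = 0.454), and 33.2, 28.4 and 53.1 in the resistant line, a change of -1.96 ± 0.20, adjusted p = 2.65e-07. Its partner chain Lama3, and Lama1 and Lama4, had no probe set above the filter; Lama4, the alpha chain of vessel and fat basement membranes, read at most 18.2 on any array.

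**Figure D3:**
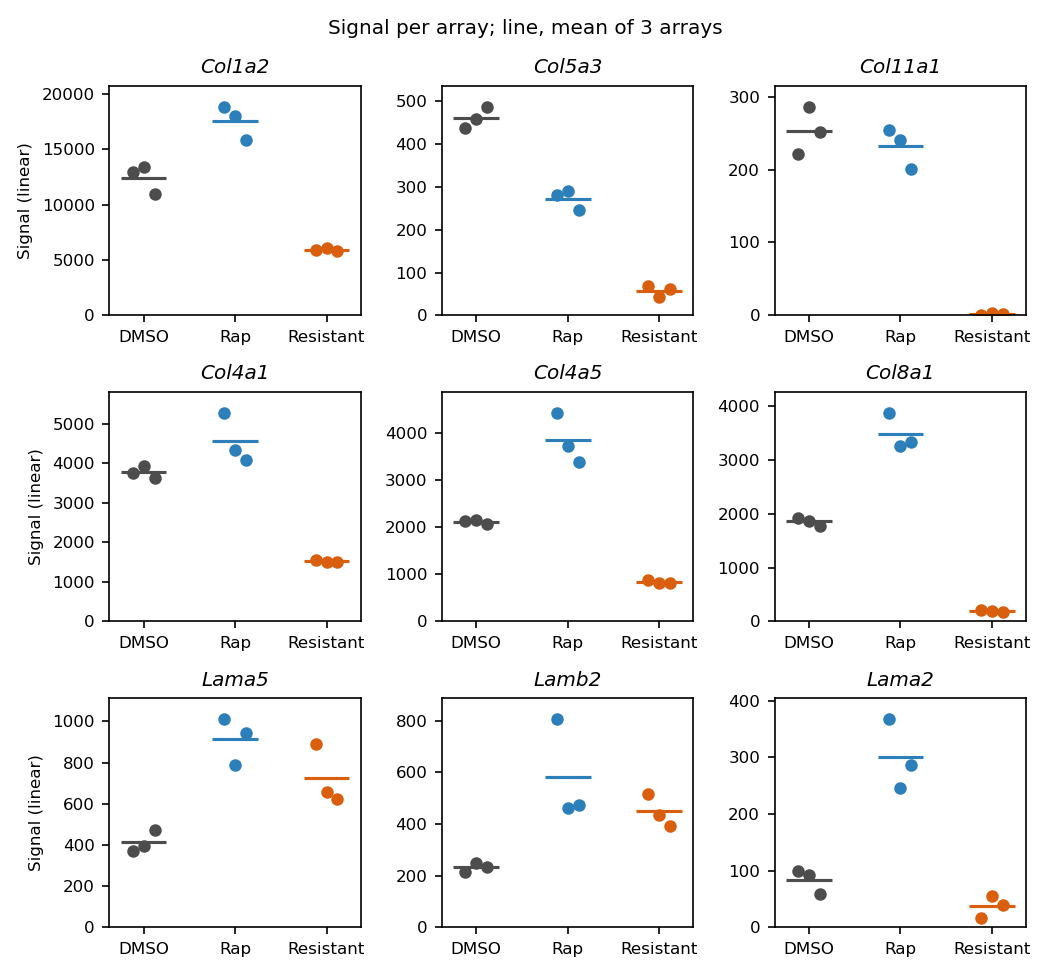
Linear signal (vertical axis, from 0) on each array for 9 chains in the DMSO, sensitive rapamycin and resistant groups; points are arrays and lines are means of 3. Col8a1, Col4a1, Col4a5 and Col1a2 are highest with rapamycin and lowest in the resistant line, Col5a3 falls from group to group, and Lama5 and Lamb2 lie above DMSO in both groups with rapamycin.

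Among the other chains, Col8a1, a short network-forming chain known from vessel walls and the cornea, rose with rapamycin and was low in the resistant line. It read 1921, 1870.1 and 1777 in DMSO, 3874, 3249 and 3333 with rapamycin and 221, 198 and 178 in the resistant line. The change was 0.90 ± 0.09, adjusted p = 4.21e-07 with rapamycin and -3.13 ± 0.09, adjusted p = 2.42e-14 in the resistant line, and the groups did not overlap. Its 3 probe sets gave 0.90, 1.08 and 0.81 with rapamycin and -3.13, -2.80 and -2.78 in the resistant line. Its partner chain Col8a2 was dim, between 13.3 and 39.4 on the 9 arrays.

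Type VI collagen forms beaded filaments next to basement membranes, above all in muscle. Col6a1 read 651, 535 and 481 in DMSO, 964, 869 and 832 with rapamycin and 266, 310.5 and 289 in the resistant line, changing by 0.67 ± 0.11, adjusted p = 0.000129 and -0.90 ± 0.11, adjusted p = 2.47e-06. Col6a2, its neighbour on chromosome 10, read 135, 87.7 and 155 in DMSO, 191, 204 and 82.8 with rapamycin and 75, 62.6 and 103 in the resistant line, and neither change against DMSO passed (0.25 ± 0.29, adjusted p = 0.558 and -0.55 ± 0.29, adjusted p = 0.125). The second Col6a2 probe set did fall in the resistant line (-2.39), and with the mean of both the change was -1.47 (adjusted p = 0.000109); without the second DMSO array the adjusted p of the brighter was 0.0495. Col6a3 read 77.9, 40.1 and 119 in DMSO, 63.9, 46.6 and 41 with rapamycin and 23.1, 43.7 and 20.8 in resistant cells; it was called lower in the resistant line (-1.02 ± 0.36, adjusted p = 0.0258) although the groups overlapped. That call was lost without the first (0.0622) or the third (0.0965) DMSO array and without the first (0.0811) or the third (0.0921) resistant array; over all alternatives the adjusted p ran from 0.0054 to 0.0965.

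Col7a1, which builds the anchoring fibrils of skin, was lower in both comparisons. It read 594, 594 and 626 in DMSO, 517, 491 and 488 with rapamycin and 208, 194 and 175 in resistant cells, so that no groups overlapped. The log2 change was -0.27 ± 0.10, adjusted p = 0.0452 with rapamycin, a call lost without any 1 of the 6 sensitive arrays (adjusted p between 0.0588 and 0.115, and 0.0871 without the third DMSO array) and without the second resistant array (0.0567). In the resistant line it was -1.58 ± 0.10, adjusted p = 6.1e-10. Col18a1, the basement membrane collagen from which endostatin is cut, was lower in the resistant line (-0.51 ± 0.18, adjusted p = 0.0281), with 142, 114 and 143 in DMSO and 102, 85.5 and 78.2 in resistant cells. That call was lost without the first DMSO array (0.0773) and without the second (0.0734) or the third (0.102) resistant array (0.00719 to 0.127 over all alternatives). Col12a1, a FACIT chain on the surface of type I fibrils, rose with rapamycin (0.54 ± 0.18, adjusted p = 0.0247) with overlapping values, from 312, 196 and 291 to 518, 310.2 and 364; the call was lost without the second DMSO array (0.138) and without the first sensitive rapamycin array (0.167; 0.00772 to 0.167 over all alternatives).

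Set against sensitive cells in rapamycin, the resistant cells were lower in 21 of 35 members and higher in 1, that is 60% and 2.86%, against 30.1% lower and 26.4% higher among all genes (56.5% called). Of fibrillar chains 8 of 9 were lower (median log2 change -1.56), of type IV chains 3 of 4, of laminins 4 of 7 and of other chains 6 of 15. The median of all genes was -0.08. Col8a1 differed by -4.03 ± 0.09, adjusted p = 7.65e-16. Lama2 differed by -2.61 ± 0.28, adjusted p = 2.5e-07, Col4a5 by -2.17 ± 0.09, Lamb3 by -2.18 ± 0.20, Col1a1 by -1.89 ± 0.13 and Col5a1 by -1.73 ± 0.09. Col11a1 (-3.79 ± 0.22, limited by the pseudocount) and Col5a3 (-1.98 ± 0.16) were also lower.

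The laminins that exceeded DMSO in the resistant line differed from sensitive cells in rapamycin by 0.34 or less on the log2 scale. They were picked for high resistant values, and the same values enter this difference. Its small size is therefore no separate result and cannot be set against other chains. Of the other laminins, Lama2 (-2.61) and Lamb3 (-2.18) differed more, and Lamc3 (-0.47) was not called. Lamb2 differed by -0.32 ± 0.17 (adjusted p = 0.115, 95% interval -0.68 to 0.03) and Lamc1 by 0.30 ± 0.13 (adjusted p = 0.069, interval 0.02 to 0.58), neither passing the test. Without the second sensitive rapamycin array Lamb2 passed (0.0452), and Lamc1 passed without the first (0.0286), without the first DMSO array (0.0335) and under 75th percentile centring (0.00961). Lama5 was lower in the resistant line (-0.34 ± 0.13, adjusted p = 0.0325) with overlapping values, a call lost in 7 of 18 alternatives (0.00256 to 0.167 over all), among them removal of the first (0.14) or the third (0.0952) sensitive rapamycin array and of the second (0.122) or the third (0.165) resistant array. Col16a1, a FACIT chain and the only member called higher, read 216, 202 and 226 in resistant and 131, 138 and 159.9 in sensitive rapamycin cells (0.54 ± 0.21, adjusted p = 0.0377), a call lost in 7 of 18 alternatives (0.00409 to 0.11 over all), among them removal of the first (0.11) or the second (0.0917) sensitive rapamycin array or of any resistant array (up to 0.103); without the third DMSO array it also passed as higher than DMSO (0.57, adjusted p = 0.00756). Of calls against sensitive rapamycin cells, those of Col27a1 (-1.14 ± 0.36, adjusted p = 0.0105; 3.33e-05 to 0.0808 over all alternatives) and Col6a2 (-0.80 ± 0.29, adjusted p = 0.0259; 5.25e-05 to 0.144) were also lost, the former without the first sensitive rapamycin array and the latter without the first or the second, or without the first or the second resistant array. Lamb1 was lower in the resistant line (-0.63 ± 0.10, adjusted p = 3.09e-05).

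Probe sets of the same gene gave the same direction where both were called, but not the same size. Of 18 members with several probe sets above the filter, 12 had the same call from all of them with rapamycin. In the resistant line 15 did against DMSO and 17 against sensitive rapamycin cells. No member had opposite calls in any comparison. These counts include members with no probe set called. With rapamycin all probe sets were called, as rises, only for Col4a1, Col4a5, Col8a1, Lama5 and Lamb1. For the rest of the 12 no probe set was called. In the resistant line against DMSO this held for Col12a1, Col9a1, Lamb1 and Lamc3. Against sensitive rapamycin cells it held for Col9a1, Lamc1 and Lamc3. With rapamycin, only some probe sets of Col1a1, Col1a2, Col5a1, Col5a2, Col27a1 and Col12a1 were called. The next brightest was called for Col1a2 (0.49, adjusted p = 0.000518). It was not called for Col1a1 (0.13, adjusted p = 0.433), Col5a2 (0.10, adjusted p = 0.387), Col5a1 (0 ± 0.10), Col27a1 (0.82, adjusted p = 0.153) or Col12a1 (0.43, adjusted p = 0.195). The brightest probe sets of Col1a1, Col1a2, Col3a1 and Col5a2 stood at or above the 97.1 percentile of every array, and their changes in the resistant line were nearer to 0 than those of the next probe set. For Col3a1 the change was -0.49 by the probe set with a mean signal of 10600 and -1.64 by that with 1250. For Col1a2 the values were -1.06 and -1.97, for Col1a1 -1.52 and -2.29, and for Col5a2 -0.58 and -0.86. For Col4a1, Col4a5, Col8a1 and Col11a1 the brightest gave the larger fall. With rapamycin the second Col3a1 probe set read -0.23, against 0.24 for the brightest, and neither passed in the fit of all probe sets (adjusted p = 0.118 and 0.0501). Whether very bright probe sets respond less than in proportion was not tested.

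**Figure D4:**
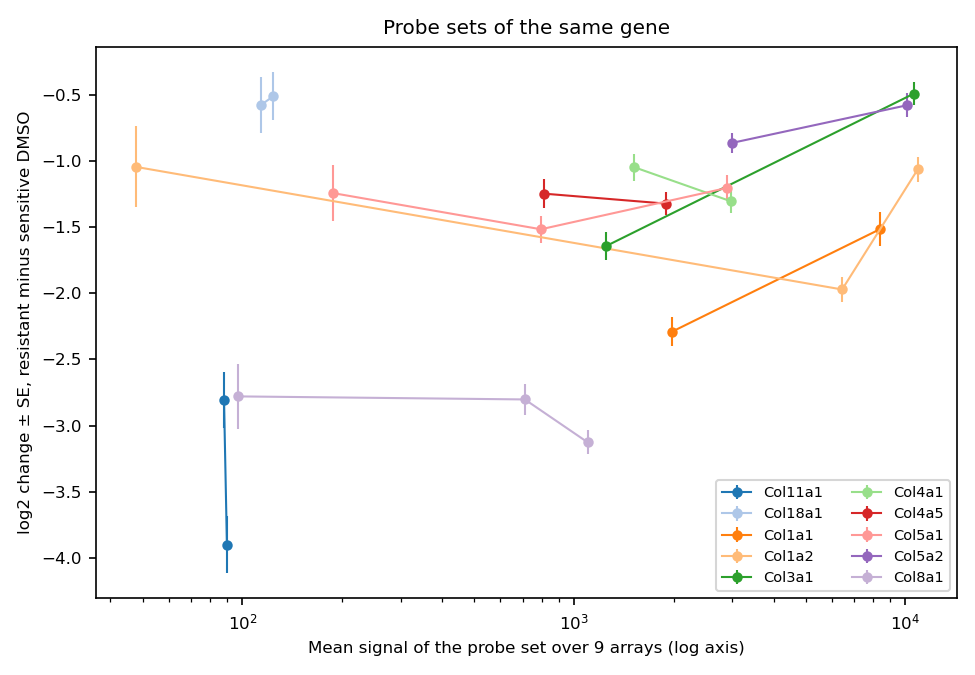
Log2 change with its standard error in the resistant line against DMSO (vertical axis) and mean signal over the 9 arrays (horizontal log axis) of each probe set above the filter, for the 10 members whose 2 brightest probe sets were both called lower; lines join probe sets of a gene. In 6 of the 10, among them Col1a1, Col1a2, Col3a1 and Col5a2 at the right, the brightest probe set lies nearer to 0 than the next.

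Genes that fold, cut and cross-link collagen were more often higher than lower with rapamycin, and more often lower than higher in the resistant line. Among all tested genes 20.4% were higher and 15.2% lower with rapamycin, and 25.9% higher and 25.8% lower in the resistant line against DMSO. Of 18 tested genes of collagen folding and modification, 10 rose and 1 fell with rapamycin, and 3 rose and 10 fell in the resistant line (median log2 changes 0.35 and -0.35). The prolyl 3-hydroxylation genes P3h3 (0.87 ± 0.16) and Crtap (0.80 ± 0.08) rose, and the collagen chaperone Serpinh1 fell (-0.28 ± 0.09, adjusted p = 0.0249). In the resistant line Creb3l1, a transcription factor for collagen secretion, fell (-2.67 ± 0.11, adjusted p = 1.9e-12), as did Fkbp14, a prolyl isomerase of the endoplasmic reticulum (-2.37 ± 0.11, adjusted p = 6.2e-12). Of 8 genes for propeptide cleavage and cross-linking, 5 rose and none fell with rapamycin, led by the procollagen protease Bmp1 (1.15 ± 0.09) and the lysyl oxidase gene Loxl1 (1.03 ± 0.07). In the resistant line none rose and 6 fell, with Lox going from 5288 ± 514 to 720.2 ± 68.7 (-2.85 ± 0.09, adjusted p = 4.74e-14) and Bmp1 changing by -1.70 ± 0.09.

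Basement membrane partners rose in 6 of 7 with rapamycin, and in the resistant line 5 fell and 1 rose. Nid1, which links laminin to type IV collagen, changed by 0.59 ± 0.10, adjusted p = 0.000245 and -2.67 ± 0.10, adjusted p = 1.11e-12. Agrn (agrin), a laminin-binding proteoglycan of the muscle synapse, rose in both, by 1.47 ± 0.17, adjusted p = 1.88e-06 and 1.24 ± 0.17, adjusted p = 6.24e-06, as Lama5 and Lamb2 did. Of 9 receptors for collagen and laminin, 7 rose with rapamycin and none fell; in the resistant line 2 rose, Dag1 (0.45 ± 0.07) and Itga3 (0.47 ± 0.10), both laminin receptors, and 3 fell, among them Itgb1 (-1.14 ± 0.09) and the laminin receptor Itga7 (-1.58 ± 0.09). Of 7 fibril-associated matrix genes 3 rose with rapamycin, and in the resistant line 3 rose and 2 fell; there Dcn (decorin) changed by -2.89 ± 0.19 and Fmod (fibromodulin) by 2.96 ± 0.35, from a mean DMSO signal close to the filter limit. Over all genes, 20.4% rose and 15.2% fell with rapamycin, and 25.9% rose and 25.8% fell in the resistant line.

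**Figure D5:**
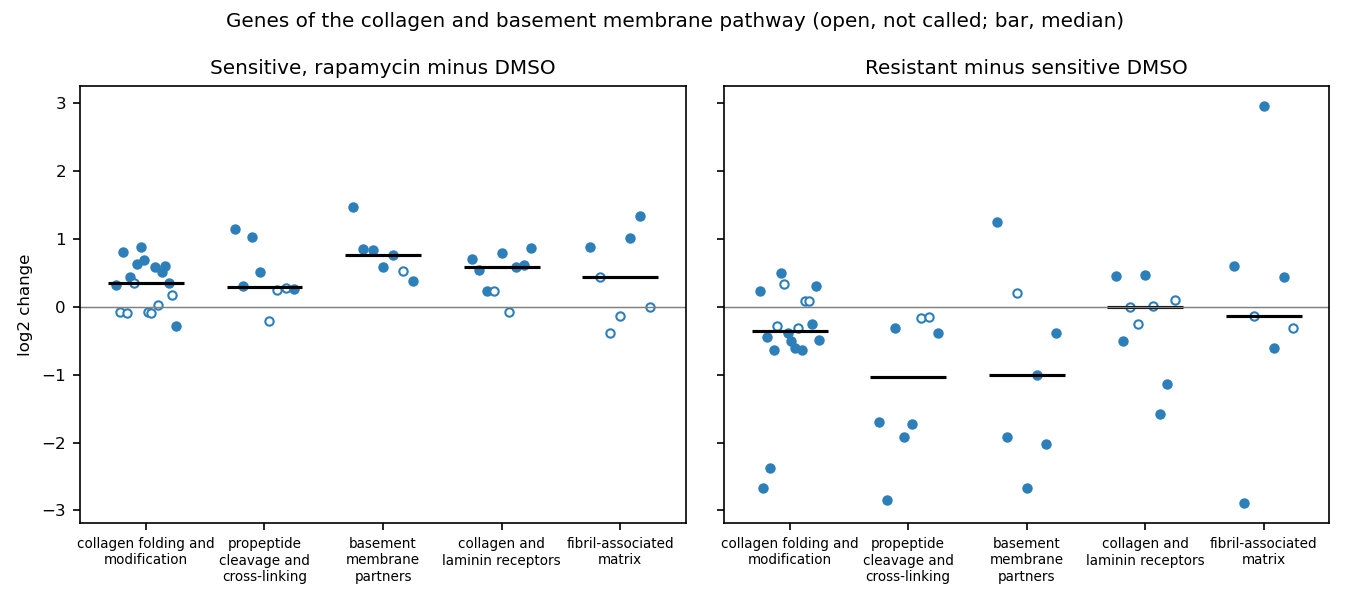
Log2 change (vertical axis) of each tested gene of 5 lists around collagen and the basement membrane, with rapamycin in sensitive cells (left) and in the resistant line against DMSO (right); open points did not pass the test and bars are medians. With rapamycin all 5 medians lie above 0, and in the resistant line those of cleavage and cross-linking and of basement membrane partners are the lowest.

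The remaining members were dim. No test was made of 17 of the 52, whose probe sets all fell below the filter, which takes the mean of log2(signal + 16) over the 9 arrays: Col2a1 and Col24a1 of the fibrillar class, Col4a3, Col4a4, Lama1, Lama3 and Lama4 of the basement membrane class, and Col6a5, Col9a2, Col9a3, Col10a1, Col13a1, Col15a1, Col17a1, Col23a1, Col25a1 and Col26a1 of the others. Their highest signal on any array was 101, for Lama3 on the third DMSO array. A further 10 members passed the filter and were called in no comparison: Col11a2, Col4a6, Lamc3, Col6a4, Col8a2, Col9a1, Col14a1, Col19a1, Col20a1 and Col22a1. A member not called, or not tested, may still be expressed below what these arrays can resolve.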

How the data were processed

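The 9 Affymetrix mouse arrays (3 groups of 3, from the sample titles) were read from the deposited table of linear signal intensities, which the authors made with GCOS 1.4, per the submitters' processing notes; no source states the summary method. The values show a common mean of 250 after trimming 2% at both ends. Among 45101 probe sets there were 64 controls; 34945 probe sets had 1 gene symbol and were used, 932 had several and 9160 none. Detection calls and scan batches were not used here. The number of arrays limits the precision.

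Values were analysed as log2(signal + 16), which understates changes of dim genes. Probe sets above the 40th percentile of the mean log2 value (equal to a signal of 22.2) were kept, the brightest per gene was used, and 12715 genes were fitted over 9 arrays with limma 3.58.1 in R 4.3.3 (lmFit, eBayes with a trend). Adjusted p-values are Benjamini-Hochberg values per comparison, threshold 0.05; single probe sets were fitted together (23173). Errors of log2 changes are standard errors, those of signals SDs, with n = 3. The model was tested on simulated arrays with 12515 of 12715 genes unchanged, so far fewer genes changed there than were called here. Of 50 genes changed by 0.5 (log2), 24% to 32% were called, and of 50 changed by 1, 76% to 78%. Changes of 0.5 can therefore be missed.

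Members, classes, lists and tests were chosen with earlier results of these data known. Arrays' values are printed for up to 8 called members per direction and comparison with the largest change and no overlap, and for 15 common trimer chains; others, and Dag1, Nid1 with rapamycin and Serpinh1, were added after their values were seen. At most 4 called genes per list and comparison are otherwise named for a change, except that Des is also named among the skeletal muscle markers in the resistant line. Replicate numbers did not pair arrays (correlations of same-numbered deviations -0.08 to 0.02).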

Additional observations from a re-analysis of the deposited data

How the results depend on the processing

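Alternatives were pseudocounts of 1 and 64, no filter or one at the 60th percentile, 75th percentile centring, quantile normalization, no trend, the mean of probe sets, a replicate block, another class assignment and each array left out. Of 60 called values (a member in a comparison), 45 kept direction and call under all alternatives run for them. Those lost in some were 8 of 18 with rapamycin, 3 of 20 in the resistant line against DMSO and 4 of 22 against sensitive rapamycin cells. With rapamycin, fibrillar chains called went from 7 to 4 under 75th percentile centring, quantile normalization, no trend and the mean of probe sets, and 4 to 7 leaving out 1 array (4 without the third DMSO or the first sensitive rapamycin array); members called lower went from 2 to 1 without a filter and with the replicate block, and 1 to 2 leaving out 1 array (1 without any sensitive or the second resistant array); other chains called were 4, and 2 to 4 leaving out 1 array (2 without the second DMSO or the first sensitive rapamycin array). In the resistant line against DMSO, other chains called were 5, 3 to 8 leaving out 1 array (8 without the second DMSO, 3 without the third resistant array), and 3 with Col7a1, Col15a1, Col17a1 and Col18a1 counted as basement membrane. Against sensitive rapamycin cells, members called higher were 1, 0 without a filter or a trend, 2 under 75th percentile centring and 0 to 2 leaving out 1 array (2 without the first DMSO array, 0 without any resistant array). Leaving out 1 array, members called higher ran from 11 to 16 with rapamycin, and members called lower from 15 to 20 in the resistant line against DMSO. No call turned direction. Uncalled values that changed sign were Col11a1 with rapamycin (0.12 with a pseudocount of 1, and -0.12 in the main setting; 0.123 without the third DMSO array, up to 0.19 leaving out 1 array), Col16a1 with rapamycin (-0.50 to 0.03 leaving out 1 array, 0.03 without the third DMSO array) and Col27a1 in the resistant line against DMSO (0.013 under 75th percentile centring, 0.19 under quantile normalization, -0.66 to 0.32 leaving out 1 array). The causes were not tested. The replicate block ended the calls of Col3a1 (0.0504) and Col7a1 (0.0668) with rapamycin, though the numbers did not pair arrays, and ended no other call of a member. Alternatives were run for the members and not for the pathway and marker genes. Leaving out an array leaves 2 in its group and fewer degrees of freedom.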
